A study of Homo sapiens with 15 samples.

Results

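The dual-specificity MAP kinase phosphatases described here are the 9 genes DUSP1, DUSP2, DUSP4, DUSP5, DUSP6, DUSP7, DUSP8, DUSP10 and DUSP16, chosen by name from the 26364 gene rows of a deposited expression table. RNA was sequenced from wild-type RPMI-8226 cells, a human cell line derived from multiple myeloma, after 1, 3, 6 or 24 h in 100 nM KB528 or in DMSO, the solvent (0 h). According to the labels, KB528 blocks the lysine acetyltransferase p300, which acetylates histones at active promoters and enhancers. Each of the 4 treated groups and the DMSO group had 3 libraries, 15 in all. All groups are the same cell line, and all 4 treated groups are set against the same DMSO libraries, so the 4 comparisons are not independent. There is no DMSO sample at the later times, so time in culture and KB528 cannot be told apart.

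MAP kinase phosphatases remove phosphate from both the threonine and the tyrosine of the activation loop of ERK, JNK and p38 and thereby switch these kinases off. DUSP1, DUSP2, DUSP4 and DUSP5 act in the nucleus and are typically transcribed quickly after stimulation. DUSP6 and DUSP7 act on ERK in the cytoplasm, while DUSP8, DUSP10 and DUSP16 act mainly on JNK and p38. Several of the genes, DUSP6 among them, are themselves switched on by ERK signalling, so that they form a feedback loop. In multiple myeloma the RAS and ERK pathway is often active.

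RefSeq promoters on GRCh38.p14 were at hand for 7 of the 9 members, not for DUSP4 or DUSP5. The 250 bases before the annotated start were searched on both strands for 11 motifs. A complete cyclic AMP response element, TGACGTCA, was found in 1.65% of 35116 promoter windows of the same length and in those of DUSP1 and DUSP8. The E-box CACGTG was found in 6.34% of windows and in those of DUSP1 and DUSP2, and the TATA box TATAAA in 10.7% of windows and in that of DUSP1. None of the 7 held a CArG box, an NF-kB site, the AP-1 motif TGANTCA, the ETS motif CCGGAA or an ETS-IRF composite site. The 3 promoters are shown because they are the members with one of these rarer motifs and belong to genes that moved in different directions at 1 h. They are written 5′ to 3′ on the minus strand, at chr5:172771196-172771445 for DUSP1, chr11:1572272-1572521 for DUSP8 and chr2:96145441-96145690 for DUSP2. Capitals mark the response elements, E-boxes, the TATA box and, in DUSP8, a CCAAT motif read on the other strand, a motif in 32.0% of windows.
DUSP1: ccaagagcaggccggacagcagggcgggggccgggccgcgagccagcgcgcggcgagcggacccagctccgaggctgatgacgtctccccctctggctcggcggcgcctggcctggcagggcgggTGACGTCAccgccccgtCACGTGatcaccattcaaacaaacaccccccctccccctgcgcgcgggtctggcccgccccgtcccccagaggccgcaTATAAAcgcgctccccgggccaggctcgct
DUSP8: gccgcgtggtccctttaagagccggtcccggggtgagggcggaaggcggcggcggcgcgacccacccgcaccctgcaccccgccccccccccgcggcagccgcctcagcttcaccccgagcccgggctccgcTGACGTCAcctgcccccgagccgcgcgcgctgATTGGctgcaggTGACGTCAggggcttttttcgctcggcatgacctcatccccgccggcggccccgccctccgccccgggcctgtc
DUSP2: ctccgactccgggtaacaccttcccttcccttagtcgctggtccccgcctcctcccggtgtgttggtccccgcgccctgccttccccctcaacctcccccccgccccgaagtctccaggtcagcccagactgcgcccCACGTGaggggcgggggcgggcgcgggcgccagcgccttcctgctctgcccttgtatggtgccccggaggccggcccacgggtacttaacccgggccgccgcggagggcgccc

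None of the other 4 promoters held a response element, an E-box or a TATA box. That of DUSP10 held 4 CCAAT motifs and that of DUSP6 held 1, while those of DUSP7 and DUSP16 held only GC boxes (GGGCGG), a motif in 42.6% of windows. In DUSP1 the response element begins 125 bases before the start, the E-box at 108 and the TATA box at 30. DUSP8 holds 2 response elements, beginning at 118 and 74 bases before the start. A match describes the sequence alone, and no binding was measured here.

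The 3′ untranslated regions of the longest coding transcripts in GENCODE v29 were searched for AU-rich motifs, which mark short-lived messages. The background was the 10339 genes with such a region that averaged 1 TPM or more in these libraries. The nonamer TTATTTATT occurred in 8.97% of them. It was found 2 times in DUSP1, 1 time each in DUSP4 and DUSP8, and not in the other 6 members. A DUSP1 site and the DUSP8 site are printed with the nonamer in capitals. In these members both a full response element and a nonamer were found. DUSP4 holds a nonamer too, but its promoter could not be searched. The regions of DUSP8 (2474 bases) and DUSP4 (3962 bases) are longer than the median of 1284 bases, that of DUSP1 (672 bases) is shorter. A longer region offers more places for a match, and the background was not matched for length.
DUSP1 site: gggctggtccTTATTTATTtaacttcacc
DUSP8 site: tttcgattttTTATTTATTtaagctgttc

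The pentamer ATTTA occurred at 5.95 per kilobase in DUSP1, 4.57 in DUSP2 and 3.04 in DUSP10. Over the same 10339 genes the median was 1.64 and the upper quartile 3.12. It was at 1.91 in DUSP16, 1.62 in DUSP8, 1.51 in DUSP4 and 0.495 in DUSP6. DUSP5 and DUSP7 held none.

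Values are TPM, in which reads are divided by transcript length and scaled to the library total, so that levels can be compared between genes. Tests used limma on log2(TPM + 1) for the 12002 genes that averaged 1 TPM or more, with Benjamini-Hochberg adjustment over all of them and a threshold of 0.05. All 9 members passed this filter. Log2 fold changes are treated minus DMSO on that scale and understate changes of genes near 1 TPM. The labels do not say whether libraries came from separate cultures, so a p-value here reflects the spread among these libraries alone, which may be technical. In bulk RNA, fewer cells with a transcript and less transcript per cell cannot be told apart.

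Replicate libraries correlated at 0.995 to 0.998 over genes, and 11616 to 12356 genes reached 1 TPM in a library. Plasma cell genes were present in all 15 libraries. JCHAIN was at 3206 to 4649 TPM and XBP1 at 395 to 732 TPM, while SLAMF7 was at 0.535 to 1.83 TPM. The T cell genes CD3D and CD2 were at 0 in all 15. CD3E was at 0.0731 to 0.952 TPM and CD3G at 0 to 0.126 TPM. The summed plasma cell list of 9 genes lay at 7595 to 8434 TPM with DMSO, at 7383 to 7637 after 1 h and at 5080 to 5252 after 24 h. Its part in the results was not tested. Of the epithelial genes, EPCAM (95.9 to 122 TPM) and KRT18 (106 to 160 TPM) were expressed. KRT8 was at 2.50 to 4.53 TPM, CDH1 at 0.120 to 0.912 TPM and KRT19 at 0 to 0.0635 TPM. The median tested gene lay 0.12 above DMSO at 6 h and 0.23 above it at 24 h on the log2 scale. Scaling to the median ratio of genes shifted libraries by -0.16 at 6 h and -0.20 at 24 h, and small rises at those times are to be read against that shift. All 9 members were lowest in DMSO replicate 2 and highest in DMSO replicate 3, an order shown by 52.7% of tested genes.

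**Figure D1:**
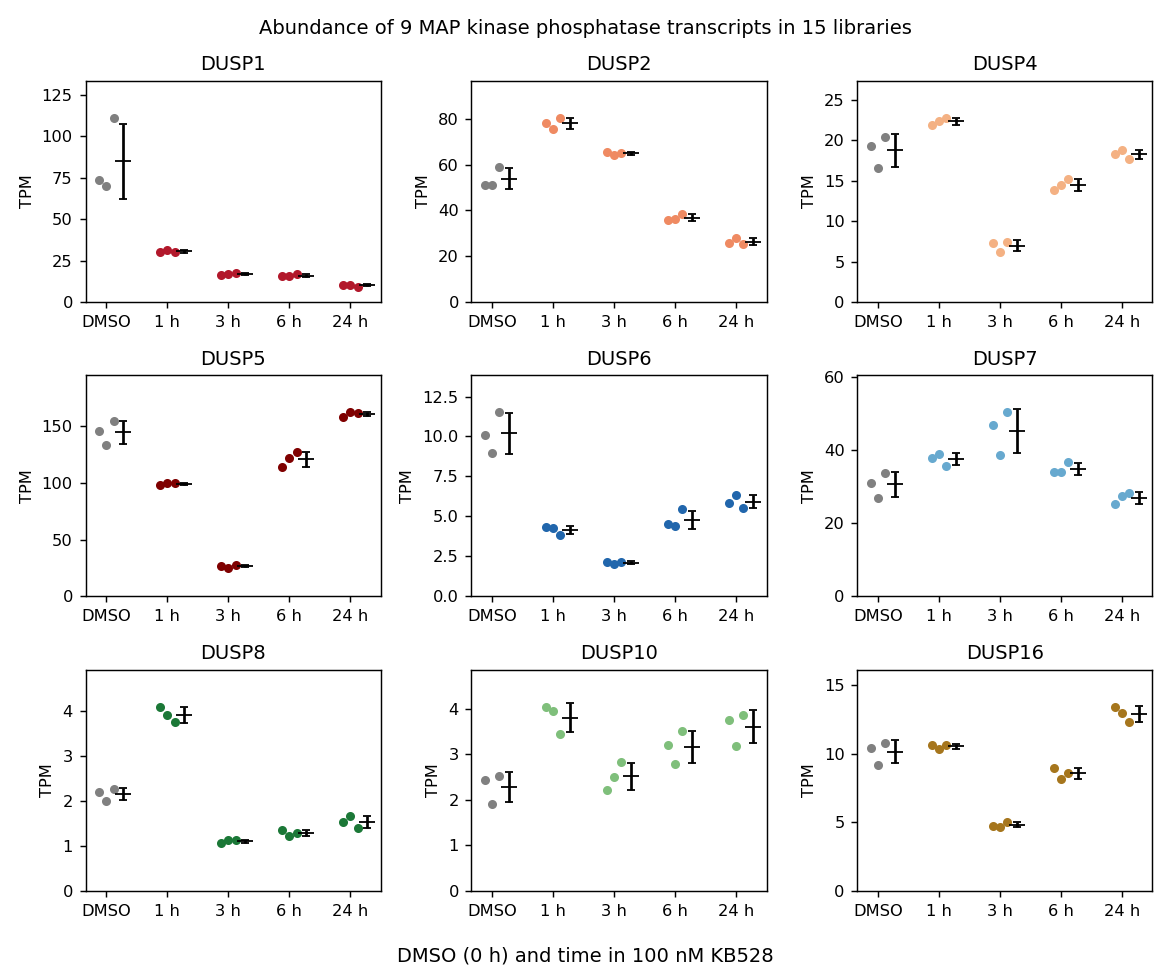
Abundance (TPM, linear axis from 0, own scale per panel) of the 9 phosphatase transcripts in DMSO (0 h, grey) and after 1, 3, 6 and 24 h in KB528. Points are single libraries and the bar beside them is the mean with its SD (n = 3). DUSP1 fell to 9.98 TPM at 24 h, while DUSP5 fell to 26.8 TPM at 3 h and stood at 161 TPM at 24 h.

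DUSP1, an immediate early gene whose product acts on p38, JNK and ERK, was lower at every time and lowest at 24 h. Its level was 73.7, 70.0 and 111 TPM in the 3 DMSO libraries, 30.2, 31.5 and 30.1 TPM after 1 h and 16.3, 16.8 and 17.8 TPM after 3 h. It was 15.5, 15.4 and 16.8 TPM after 6 h and 10.4, 10.2 and 9.29 TPM after 24 h. Every treated library lay below every DMSO library. The fall was already 2.78-fold in mean TPM at 1 h and 8.51-fold at 24 h. On the log2 scale DUSP1 stood at -2.23 (adjusted p = 6.75e-10) at 3 h, -2.32 (4.06e-10) at 6 h and -2.94 (5.95e-11) at 24 h, each with a standard error of 0.12 (limma). It fell by a further 0.82 between 1 and 3 h (adjusted p = 5.16e-05, limma) and by 0.62 between 6 and 24 h (0.000286). The difference of 6 h from 3 h was -0.086 (0.562). DMSO replicate 3 held 1.55 times the mean of the other DMSO libraries, against 1.08 times for the median gene. Without that library the log2 differences were -1.21, -2.02, -2.11 and -2.73 at 1, 3, 6 and 24 h, all still past the threshold.

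DUSP5, a nuclear phosphatase specific for ERK, was the most abundant member with DMSO and showed a fall that was deepest at 3 h. It was at 146, 134 and 155 TPM with DMSO, 98.6, 100.3 and 99.8 TPM after 1 h and 27.2, 25.4 and 27.7 TPM after 3 h. After 6 h it was at 114, 122 and 127 TPM, and after 24 h at 159, 162 and 162 TPM. The libraries of 1, 3 and 6 h lay below all DMSO libraries and those of 24 h above them. The 3 h mean was 5.41-fold below that of DMSO. Against DMSO, the log2 difference was -0.53 (adjusted p = 3.26e-06) at 1 h and -0.26 (0.000513) at 6 h, with a standard error of 0.053 (limma). Between 3 and 6 h DUSP5 rose by 2.14 (adjusted p = 1.06e-12, limma) and between 6 and 24 h by 0.41 (6.02e-06). The 24 h level was 0.15 above DMSO (0.0166), a direction that turned to -0.045 (0.228) with median-ratio scaling and lost its call without DMSO replicate 2 (0.099, 0.0911). Spike-in scaling ended the calls at 1 h (-0.59, 0.0757), at 6 h (-0.067, 0.807) and of the step between 6 and 24 h (0.20, 0.453), and with median-ratio scaling the 6 h difference was -0.41.

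DUSP4, a nuclear phosphatase of ERK and JNK, had its low point at 3 h too. DUSP4 measured 19.3, 16.5 and 20.4 TPM with DMSO, 21.9, 22.4 and 22.8 TPM after 1 h and 7.31, 6.23 and 7.38 TPM after 3 h. It measured 13.8, 14.4 and 15.3 TPM after 6 h and 18.3, 18.8 and 17.7 TPM after 24 h. The 3 h libraries were the lowest of all, and the 24 h libraries overlapped DMSO. DUSP4 fell by 1.31 at 3 h (adjusted p = 1.21e-09, limma) and by 0.35 at 6 h (0.000674), with a standard error of 0.074. From 3 h, it was 0.96 higher at 6 h (6.55e-08) and 1.28 higher at 24 h (7.27e-10). The rise of 0.25 at 1 h (0.0270) lost its call without any one of the 3 libraries of 1 h or without DMSO replicate 2 (adjusted p = 0.0524 to 0.116). At 24 h the difference from DMSO was -0.032 (0.713), and -0.22 (0.00148) with median-ratio scaling. Spike-in scaling ended the 6 h call (-0.17, 0.508).

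DUSP2, a nuclear phosphatase of ERK and p38 known from activated lymphocytes, first rose and then fell. DUSP2 held 51.2, 51.1 and 59.2 TPM with DMSO, 78.3, 75.4 and 80.5 TPM after 1 h and 65.7, 64.3 and 65.0 TPM after 3 h. It held 35.8, 36.2 and 38.5 TPM after 6 h and 25.6, 28.2 and 25.3 TPM after 24 h. No treated library overlapped DMSO, those of 1 and 3 h being above and those of 6 and 24 h below. Its log2 difference was 0.53 at 1 h (adjusted p = 9.70e-06), 0.27 at 3 h (0.00105), -0.53 at 6 h (1.14e-06) and -1.001 at 24 h (2.31e-09), with a standard error of 0.058 (limma). Each step after 1 h was a fall, of 0.26 to 3 h (adjusted p = 0.00178, limma), 0.80 to 6 h (3.57e-08) and 0.47 to 24 h (4.38e-06). With spike-in scaling the differences at 1 h (0.48), 3 h (0.050) and 6 h (-0.35) were not called, nor were the steps between 1 and 3 h (-0.43, 0.129) and between 3 and 6 h (-0.40, 0.0679).

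DUSP6, the classic feedback phosphatase of ERK in the cytoplasm, was lower at every time. Its libraries held 10.1, 8.97 and 11.5 TPM with DMSO, 4.33, 4.25 and 3.84 TPM after 1 h and 2.18, 2.004 and 2.17 TPM after 3 h. They held 4.53, 4.43 and 5.44 TPM after 6 h and 5.84, 6.36 and 5.55 TPM after 24 h. All 12 treated libraries lay below all DMSO libraries, with the 3 h libraries lowest. The log2 difference was -1.12 at 1 h (adjusted p = 2.74e-07), -1.84 at 3 h (1.96e-10), -0.95 at 6 h (2.06e-07) and -0.69 at 24 h (6.17e-06), with a standard error of 0.088 (limma). Against 3 h it was higher by 0.89 at 6 h (9.07e-07) and by 1.15 at 24 h (1.37e-08). DUSP1 and DUSP6 were the members called lower at all 4 times, as deposited and in every alternative that was run. How many of all tested genes were called lower at all 4 times was not computed.

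DUSP7, the other cytoplasmic ERK phosphatase, went the opposite way at 3 h. DUSP7 was at 31.1, 27.0 and 33.8 TPM with DMSO, 37.8, 39.0 and 35.7 TPM after 1 h and 46.9, 38.7 and 50.3 TPM after 3 h. It was at 33.9, 33.9 and 36.7 TPM after 6 h and 25.1, 27.4 and 28.3 TPM after 24 h. The libraries of 1, 3 and 6 h lay above DMSO, and those of 24 h overlapped it. It rose by 0.55 at 3 h (standard error 0.090, adjusted p = 0.000101, limma), where DUSP6 fell by 1.84. The rise of 0.29 at 1 h (0.0320) lost its call without either of 2 libraries of 1 h or 2 of DMSO (adjusted p = 0.0639 to 0.151). The differences at 6 h (0.19, adjusted p = 0.0772) and 24 h (-0.17, 0.0946) did not pass, and that at 24 h did with median-ratio scaling (-0.37, 0.000504). With spike-in scaling the 3 h difference was 0.33 (0.216).

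DUSP8, a phosphatase of JNK and p38 and a transcript of low level here, changed direction between 1 and 3 h. DUSP8 stood at 2.20, 2.01 and 2.28 TPM with DMSO, 4.10, 3.92 and 3.75 TPM after 1 h and 1.06, 1.12 and 1.13 TPM after 3 h. It stood at 1.35, 1.22 and 1.28 TPM after 6 h and 1.53, 1.67 and 1.40 TPM after 24 h. The 1 h libraries lay above DMSO and all later ones below. DUSP8 was 1.82-fold above DMSO in mean TPM at 1 h, or 0.64 on the log2 scale (standard error 0.067, adjusted p = 5.63e-06, limma). It was lower by 0.59 after 3 h (2.66e-06), 0.47 after 6 h (1.56e-05) and 0.32 after 24 h (0.000524), and the 3 h level was 1.23 below that of 1 h (1.77e-09). With a pseudocount of 0.1, which weighs low levels more, the differences were -0.91 at 3 h and -0.71 at 6 h. Spike-in scaling ended its calls at 6 h (-0.36) and 24 h (-0.33).

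DUSP10, a phosphatase of JNK and p38, was the member with the least change between group means on the log2(TPM + 1) scale. In mean TPM its widest span was 1.66-fold, close to the 1.68-fold of DUSP7. DUSP10 was at 2.45, 1.91 and 2.52 TPM with DMSO, 4.05, 3.95 and 3.44 TPM after 1 h and 2.23, 2.50 and 2.83 TPM after 3 h. It was at 3.20, 2.79 and 3.51 TPM after 6 h and 3.76, 3.19 and 3.88 TPM after 24 h. The 3 h libraries overlapped DMSO and the others lay above it. It rose by 0.55 at 1 h (standard error 0.098, adjusted p = 0.000889, limma), by 0.34 at 6 h (0.00590) and by 0.49 at 24 h (0.000398), and the 3 h difference was 0.097 (0.415). With spike-in scaling the 1 h difference of 0.51 was not called (0.1002).

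DUSP16, a phosphatase of JNK and p38 that shuttles between nucleus and cytoplasm, followed a course like that of DUSP5 and DUSP4. DUSP16 read 10.4, 9.19 and 10.8 TPM with DMSO, 10.6, 10.3 and 10.6 TPM after 1 h and 4.74, 4.68 and 5.04 TPM after 3 h. It read 8.95, 8.13 and 8.59 TPM after 6 h and 13.4, 13.0 and 12.3 TPM after 24 h. The 1 h libraries overlapped DMSO, those of 3 and 6 h lay below it and those of 24 h above. DUSP16 fell by 0.93 at 3 h (standard error 0.063, adjusted p = 8.61e-09, limma) and by 0.22 at 6 h (0.00585), and rose by 0.32 at 24 h (0.000312). With median-ratio scaling the values were -0.36 at 6 h and 0.14 at 24 h (0.0178). Spike-in scaling left neither call (-0.048 at 6 h, 0.30 at 24 h).

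**Figure D2:**
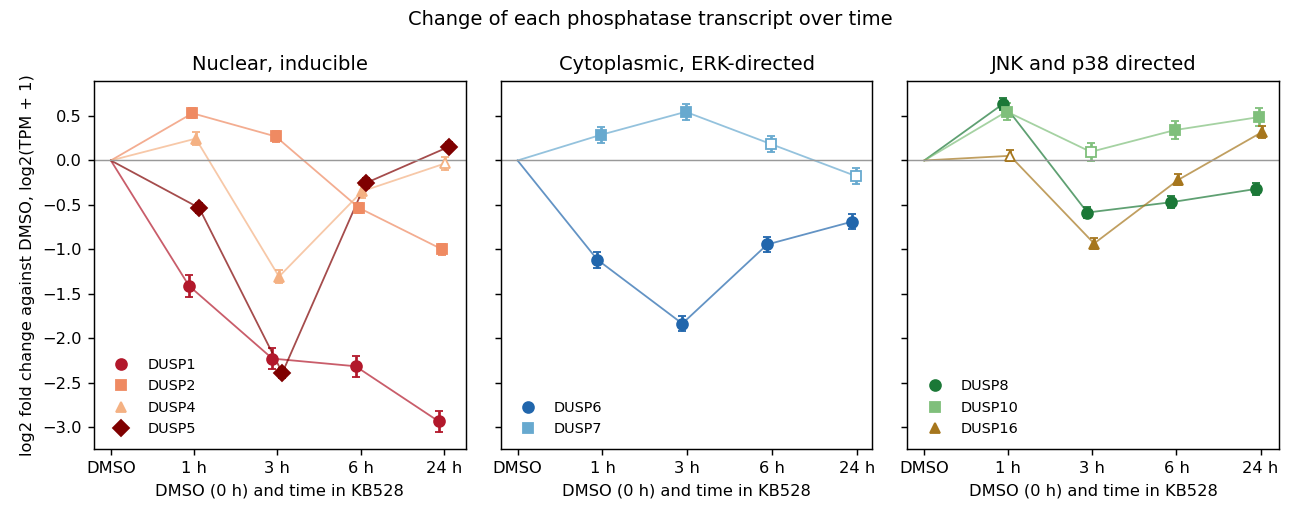
Log2 fold change of each phosphatase transcript against DMSO on log2(TPM + 1), by subfamily, at 1, 3, 6 and 24 h. Points are limma estimates with their standard errors, filled where the adjusted p was under 0.05. DUSP5, DUSP4, DUSP16 and DUSP6 had their lowest point at 3 h, while DUSP1 was lowest at 24 h. The small rise of DUSP5 at 24 h (0.15) turned to -0.045 with median-ratio scaling.

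At 1 h, 5 members were higher, against a background of 15% of all tested genes called higher, 3 were lower against 7.57%, and 1 was not called. Those higher were DUSP2, DUSP4, DUSP7, DUSP8 and DUSP10, and those lower DUSP1, DUSP5 and DUSP6. The number higher was 3 without 1 h replicate 1, without 1 h replicate 2, without DMSO replicate 2 or with no filter. The median member stood at 0.25, against 0.043 for all tested genes.

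At 3 h, 2 members were higher (DUSP2 and DUSP7) against 24.9% of genes, and 6 were lower against 32%, with DUSP10 not called. The median was -0.93 over the members and -0.042 over all tested genes. At 6 h, DUSP10 alone was higher, against 44.4% of genes, and 7 members were lower, against 24.5%. The medians were -0.35 over the members and 0.12 over all tested genes.

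At 24 h, 3 members were higher (DUSP5, DUSP10 and DUSP16), against 56.1% of genes, and 4 were lower (DUSP1, DUSP2, DUSP6 and DUSP8), against 15.2%. Here the median member was at -0.17 and the median of all tested genes at 0.23. With median-ratio scaling, 2 members were higher and 6 lower at 24 h, DUSP5 being no longer among the higher ones. With spike-in scaling 1 and 2 members were higher and lower at 1 h, 0 and 6 at 3 h, 1 and 2 at 6 h and 1 and 3 at 24 h. Within a group, the spike-in factors had a standard deviation of 0.12 to 0.32 on the log2 scale. Over the course as a whole, all 9 members passed the moderated F test of limma, as did 93.6% of tested genes.

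Between 1 and 3 h, 8 members fell, against 31.8% of tested genes, and DUSP7 rose, against 15.2%. The rise of DUSP7 (0.26, adjusted p = 0.0269, limma) lost its call without 1 h replicate 1 or 3, without 3 h replicate 1 or 3, with no filter (0.0673) and with spike-in scaling (0.096, 0.783). Between 3 and 6 h, 5 members rose (DUSP4, DUSP5, DUSP6, DUSP10 and DUSP16), against 42.3% of genes, and DUSP2 and DUSP7 fell, against 13.7%. The fall of DUSP7 in that step (-0.36, adjusted p = 0.00319, limma) turned to 0.042 with spike-in scaling, under which 0 members fell. The rise of DUSP10 (0.25, 0.0439) lost its call with no filter (0.0963), median-ratio scaling (0.13, 0.216), spike-ins out of the total (0.21, 0.0920) and only the compared groups (0.0524). It also lost it without any one of 7 libraries, namely 1 h replicate 1 or 2, 3 h replicate 1 or 2, 6 h replicate 1 or 3 and 24 h replicate 1. At 24 h set against 6 h, 4 members were higher (DUSP4, DUSP5, DUSP6 and DUSP16), against 41% of genes, and 3 were lower (DUSP1, DUSP2 and DUSP7), against 26%. With spike-in scaling 0 members were higher in that step, DUSP4 standing at 0.12 (0.677), DUSP6 at 0.080 (0.774) and DUSP16 at 0.35 (0.157), and DUSP6 lost its call without 6 h replicate 1 or 2 or 24 h replicate 2. From 3 to 24 h, 6 members rose, against 56.2% of genes, and DUSP1, DUSP2 and DUSP7 fell, against 19.9%. Of these, DUSP8 lost its call with spike-in scaling (0.37, 0.0533).

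The make-up of the family changed with these courses. The 9 transcripts summed to 358 ± 44.0 TPM with DMSO, 290.5 ± 0.598 TPM after 1 h and 172 ± 9.03 TPM after 3 h (SD, n = 3 each). The sum was 241 ± 11.2 TPM after 6 h and 266 ± 4.43 TPM after 24 h. DUSP5 made up 40.7% ± 2.24 of it with DMSO, 34.3% after 1 h, 15.6% after 3 h, 50.2% after 6 h and 60.4% ± 0.531 after 24 h. DUSP1 made up 23.5% ± 3.34 with DMSO, 10.5% after 1 h, 9.88% after 3 h, 6.60% after 6 h and 3.75% ± 0.237 after 24 h. DUSP2 peaked at 37.9% ± 1.76 of the sum at 3 h. The share of the cytoplasmic pair, the larger part of it DUSP7 in every group, was 11.4% with DMSO, 14.3% after 1 h, 27.6% after 3 h, 16.5% after 6 h and 12.3% after 24 h. DUSP8, DUSP10 and DUSP16 together made up 4.09% to 6.77% in every group. The ratio of DUSP5 to DUSP1, 2 nuclear phosphatases, was 1.76 ± 0.320 with DMSO, 3.26 ± 0.0713 after 1 h, 1.58 ± 0.0797 after 3 h, 7.62 ± 0.265 after 6 h and 16.2 ± 1.13 after 24 h (SD, n = 3 each).

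**Figure D3:**
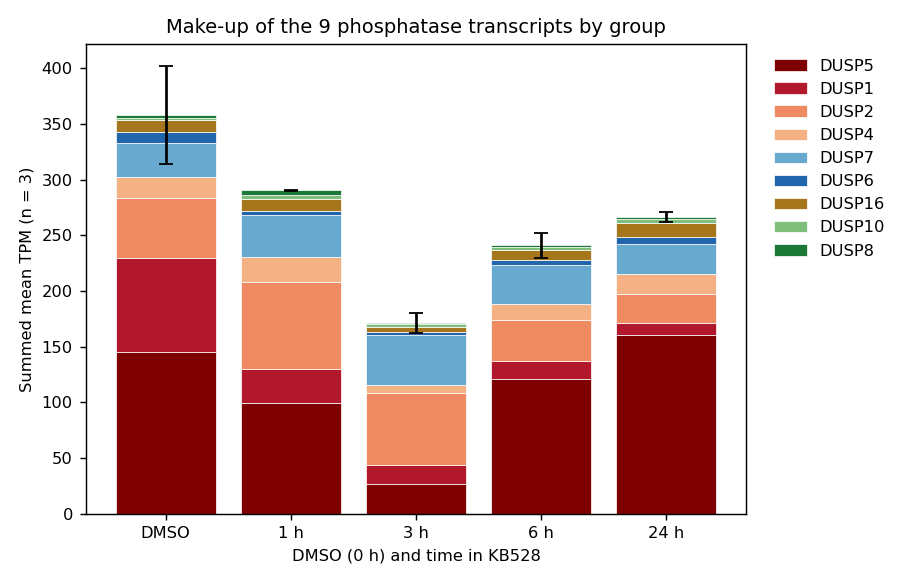
Stacked mean TPM (n = 3) of the 9 phosphatase transcripts in DMSO (0 h) and at 1, 3, 6 and 24 h in KB528. Error bars are the SD of the sum. The sum was lowest at 3 h (172 TPM), when DUSP2 and DUSP7 were the largest parts, and DUSP5 made up 60.4% of it at 24 h.

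By level in TPM, the order with DMSO was DUSP5, DUSP1, DUSP2, DUSP7, DUSP4, DUSP6, DUSP16, DUSP10 and DUSP8. DUSP6 and DUSP16 overlapped there, as did DUSP10 and DUSP8. At 1 h the order was DUSP5, DUSP2, DUSP7, DUSP1, DUSP4, DUSP16, DUSP6, DUSP8 and DUSP10, the last 3 overlapping. At 3 h DUSP2 led, followed by DUSP7, DUSP5, DUSP1, DUSP4, DUSP16, DUSP10, DUSP6 and DUSP8, and no neighbours overlapped. DUSP5 led again at 6 h, followed by DUSP2 and DUSP7, which overlapped, and by DUSP1, DUSP4, DUSP16, DUSP6, DUSP10 and DUSP8. At 24 h DUSP5 was followed by DUSP7 and DUSP2, which overlapped, and then by DUSP4, DUSP16, DUSP1, DUSP6, DUSP10 and DUSP8. DUSP1 thus stood in place 2 with DMSO and in place 6 at 24 h.

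Across the 15 libraries, which share 5 group means, log2 levels of DUSP5 and DUSP16 had a Pearson r of 0.93, DUSP4 and DUSP16 0.93, DUSP4 and DUSP5 0.88 and DUSP5 and DUSP6 0.85. DUSP7 ran against DUSP5 (-0.81) and DUSP16 (-0.78). DUSP1 and DUSP5 had an r of 0.18. Each is a description with no test. Between the highest and the lowest group mean, DUSP1 spanned 2.94 on the log2(TPM + 1) scale, DUSP5 2.54, DUSP6 1.84, DUSP4 1.55, DUSP2 1.53, DUSP16 1.26, DUSP8 1.23, DUSP7 0.72 and DUSP10 0.55. That scale narrows the span of low transcripts. In mean TPM, DUSP8 spanned 3.55-fold, more than DUSP4 (3.21), DUSP2 (2.96) and DUSP16 (2.68), while DUSP7 spanned 1.68-fold and DUSP10 1.66-fold.

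Among 9319 other genes averaging 5 TPM or more, the patterns most like that of DUSP1 by Pearson r over the 15 libraries were BHLHE40 (0.97), S100A11 (0.95) and CHCHD4 (0.95). BHLHE40, a transcription repressor, averaged 11.2 TPM with DMSO, 7.33 after 1 h, 6.42 after 3 h, 5.55 after 6 h and 4.66 after 24 h. S100A11 averaged 833 TPM with DMSO and 539 after 24 h, and CHCHD4 61.2 and 43.0. Pearson r does not weigh the size of a change, and the falls of these genes were smaller than that of DUSP1. The patterns most like DUSP5 were ZBTB7B, GRB7 and CASP10, each with an r of 0.99. GRB7, an adaptor protein of receptor tyrosine kinases, averaged 18.8 TPM with DMSO, 13.7 after 1 h, 4.79 after 3 h, 17.5 after 6 h and 21.5 after 24 h. CASP10, an initiator caspase, averaged 16.5 TPM with DMSO, 13.0 after 1 h, 5.42 after 3 h, 14.6 after 6 h and 19.98 after 24 h. Those most like DUSP6 were RELL2 (0.97), PWWP2B (0.97) and JMJD4 (0.96). RELL2 averaged 10.7 TPM with DMSO and 6.57 after 3 h, PWWP2B 9.19 and 4.44, and JMJD4 60.2 and 44.3. Their falls were smaller than that of DUSP6, from 10.2 to 2.12 TPM.

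Other parts of MAP kinase signalling were followed through 8 lists with 109 genes, of which 88 were tested. In these lists 23 genes were higher and 6 lower at 1 h, 21 and 36 at 3 h, 42 and 31 at 6 h, and 45 and 25 at 24 h. With median-ratio scaling the counts at 24 h were 26 higher and 33 lower, and with spike-in scaling they were 12 and 3 at 1 h, 3 and 24 at 3 h, 36 and 13 at 6 h, and 14 and 11 at 24 h. All tested genes had 15% called higher and 7.57% lower at 1 h, 24.9% and 32% at 3 h, 44.4% and 24.5% at 6 h, and 56.1% and 15.2% at 24 h. Without DMSO, SPRY1 averaged 0.841 TPM, without the 1 h group EGR1 averaged 0.568 TPM, and without the 24 h group MAP2K6 averaged 0.651 TPM, so these 3 genes passed the 1 TPM filter only through the group where they were highest. They are included in the list counts, but their differences are descriptions. DUSP9, the remaining typical phosphatase of the family, averaged 1.01 TPM with DMSO, 0.837 after 1 h, 0.588 after 3 h, 0.445 after 6 h and 0.689 after 24 h, and was not tested.

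Sprouty and SPRED proteins restrain RAS and RAF and, like DUSP6, are feedback products of ERK. Of 7 genes, 3 were tested. At 3 h SPRED1 fell by 1.06 (standard error 0.084, adjusted p = 5.88e-08, limma) and SPRED2 fell by 0.63 (0.000136). SPRY1 averaged 2.09 TPM with DMSO, 0.631 after 1 h, 0.713 after 3 h, 0.748 after 6 h and 1.27 after 24 h. SPRED2 (0.38, 0.00503) and SPRED1 (0.23, 0.0219) were higher at 24 h, calls that median-ratio scaling ended (0.19 and 0.068), as did spike-in scaling (0.36 and 0.21).

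Among genes driven by ERK, 10 of 13 were tested, and 5 were higher and 2 lower at 1 h, 2 and 6 at 3 h, 3 and 4 at 6 h, and 3 and 6 at 24 h. The higher counts at 1, 3 and 6 h include EGR1, which passed the filter only through the 1 h group. FOSL1, an AP-1 subunit, rose by 1.92 at 1 h (adjusted p = 1.05e-09, limma). EGR1, an immediate early transcription factor, averaged 0.307 TPM with DMSO, 3.12 after 1 h, 0.954 after 3 h, 0.681 after 6 h and 0.330 after 24 h. MCL1, a survival factor of myeloma cells, rose by 0.84 at 1 h (1.36e-07). FOS was lower after 3 h (-2.72, adjusted p = 1.82e-10), 6 h (-3.82, 4.02e-12) and 24 h (-4.44, 1.78e-12). FOS, like DUSP1, was highest in DMSO replicate 3, at 55.8 TPM, against 38.6 and 35.0 TPM in the other DMSO libraries. MYC averaged 808 TPM with DMSO, 660 after 1 h, 267 after 3 h, 235 after 6 h and 315 after 24 h, a fall of 1.59 at 3 h (1.64e-11) and 1.77 at 6 h (3.70e-12). ETV5, an ETS factor, was higher by 0.92 at 24 h (6.77e-08).

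**Figure D4:**
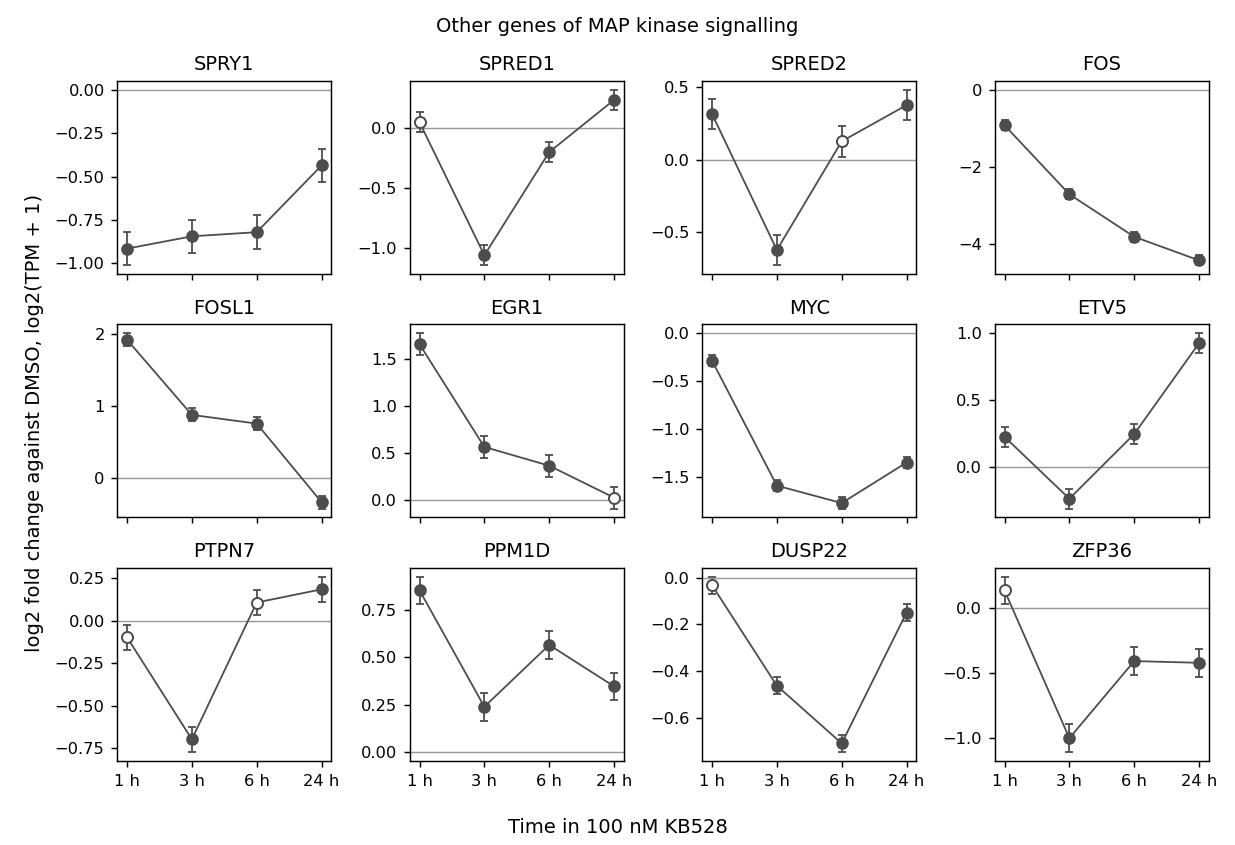
Log2 fold change against DMSO (limma estimate and standard error, own scale per panel) of 12 other genes of MAP kinase signalling at 1, 3, 6 and 24 h in KB528, filled where the adjusted p was under 0.05. SPRED1, SPRED2, PTPN7 and ZFP36 were lowest at 3 h, FOS was lower at all 4 times, and FOSL1 and EGR1 were highest at 1 h. SPRY1 and EGR1 passed the filter only through DMSO and 1 h, and their points are descriptions. The small 24 h rises of SPRED1 and SPRED2 were not called with median-ratio scaling.

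Of the kinases and exchange factors from RAS to ERK and RSK, 15 of 16 genes were tested. At 1 h 2 were higher and 0 lower, at 3 h 1 and 6, at 6 h 10 and 3, and at 24 h 11 and 0. With 1 library left out, the number called at 1 h ranged from 1 (without 1 h replicate 2 or 3, or DMSO replicate 2) to 4 (without 3 h replicate 2) and 6 (without DMSO replicate 3). MAPK3, which encodes ERK1, fell by 0.33 at 3 h (adjusted p = 6.67e-05, limma), and SOS2, a RAS exchange factor, rose by 0.87 at 24 h (1.52e-07). With median-ratio scaling 7 genes of the list were higher and 2 lower at 24 h. Of JNK and p38 kinases and their regulators, 22 of 24 were tested, and 3 were higher and 2 lower at 1 h, 3 and 10 at 3 h, 9 and 10 at 6 h, and 10 and 6 at 24 h. The higher count at 24 h includes MAP2K6, which passed the filter only through that group. GADD45B, a stress-induced regulator of JNK and p38 signalling, rose by 0.57 at 1 h (1.71e-07) and 0.63 at 3 h (1.10e-08), and fell by 1.25 at 24 h (9.67e-12). Spike-in scaling ended its calls at 1 h (0.51, 0.191) and 3 h (0.41, 0.120). MAP3K1, a kinase upstream of JNK, fell by 1.09 at 3 h (9.10e-08), and MAP2K4, which phosphorylates JNK, rose by 0.81 at 6 h (3.09e-08).

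Transcription factors that MAP kinases phosphorylate or induce were mostly higher at 1 h. Of 16 listed, 14 were tested, and 10 were higher and 0 lower at 1 h, 6 and 4 at 3 h, 7 and 6 at 6 h, and 5 and 7 at 24 h. ATF3 rose by 2.88 at 1 h (adjusted p = 1.51e-12, limma), NR4A1 by 2.50 (8.13e-12) and JUNB by 1.09 (2.53e-10). ATF3 was lower at 6 h (-1.15, 1.25e-08). JUN was higher at 1 h (0.60, 0.000620), a call lost with spike-in scaling (0.54, 0.129), and lower at 3 h (-1.15, 1.94e-07), 6 h (-1.46, 1.03e-08) and 24 h (-1.93, 8.35e-10). JUND rose by 1.202 at 1 h (8.52e-10) and 0.94 at 3 h (2.05e-09). It was lower at 6 h (-0.23, 0.00188) and 24 h (-0.31, 0.000176), calls that spike-in scaling ended (-0.041 and -0.32). With median-ratio scaling the list had 2 genes higher and 7 lower at 24 h, and the JNK and p38 list 6 and 10.

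In the list of other phosphatases of MAP kinases, which leaves out the atypical DUSP genes, PTPN7 was the one called lower at 3 h. Of 9 listed, 6 were tested, with 1 higher and 0 lower at 1 h, 4 and 1 at 3 h, 5 and 0 at 6 h, and 5 and 1 at 24 h. PTPN7, a tyrosine phosphatase of ERK in blood cells, fell by 0.70 at 3 h (adjusted p = 1.50e-06, limma). PPM1D, a p38 phosphatase, rose by 0.85 at 1 h (6.84e-07) and 0.56 at 6 h (5.64e-06), and PPP2CB, a catalytic subunit of PP2A, by 0.64 at 6 h (2.05e-07). Of 16 atypical DUSP genes, 10 were tested, with 0 higher and 1 lower at 1 h, 5 and 4 at 3 h, 5 and 4 at 6 h, and 5 and 2 at 24 h. DUSP22, a regulator of JNK signalling, fell by 0.46 at 3 h (6.81e-08) and by 0.71 at 6 h (4.70e-10).

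All 8 genes for proteins that bind AU-rich elements were tested, and 1 was higher and 0 lower at 1 h, 0 and 2 at 3 h, 3 and 2 at 6 h, and 4 and 2 at 24 h. ZFP36, which destabilises messages with such elements, fell at 3 h, with a log2 difference of -1.0 (adjusted p = 1.42e-06, limma), and its relative ZFP36L2 fell by 0.52 at 3 h (0.000461) and by 0.67 at 24 h (2.87e-05). TIA1 rose by 0.29 at 6 h (0.000142) and by 0.46 at 24 h (1.67e-06), the 24 h call being lost with spike-in scaling (0.44, 0.0854).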

How the data were processed

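Expression was deposited by the authors as TPM for 15 libraries, each summing to 1000000 over 26364 genes and 92 ERCC spike-ins. Per the labels' protocols, RNA came from a Zymo column kit and libraries were strand-specific and enriched for mRNA. Per the submitters' processing notes, FastQC, MultiQC, STAR, featureCounts and hg19 were used. Versions and settings are not given in the sources used here. The DMSO columns are named in the table as no treatment at 0 h, and were matched by time and replicate number. Read totals are not in a TPM table. The steps of values under 0.1 TPM put the libraries at 0.759 to 1.12 times the depth of DMSO replicate 1, and no count interval was computed. Spike-ins took 9.35% to 16.6% of the TPM, which lowers every gene of a library alike.

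Spike-in rows were left out of all tests. The 12002 genes averaging 1 TPM or more were tested with limma 3.58.1 (R 4.3.3) on log2(TPM + 1), with all 5 groups in 1 fit, a variance trend and Benjamini-Hochberg adjustment within each contrast. Contrasts were each time against DMSO and between times. The fit was also run on simulated data with independent noise and known changes at 3 h only. That setting is simpler than these libraries, so it cannot vouch for the calls here. Replicate numbers are not said to mark a shared culture or day. Between 6 h and DMSO the deviations of all 3 same-numbered pairs correlated (0.136, 0.152 and 0.148), while the 6 other pairs were negative. Deviations from a group mean cancel out within the group, so the negative values follow in part from the positive ones. The fit with a replicate block moved no member's call there. The members and lists were chosen with earlier results of these data known, so no list was given a test of its own. The text names all 9 members, for each list and time up to 3 called genes with the smallest adjusted p, and the 3 genes most like each of the 3 members with the widest spread. Some of these are left out for length. Alternatives were another pseudocount (0.1), another filter (5 TPM) or none, median-ratio and spike-in scaling, spike-ins out of the total, no variance trend, a replicate block, only the compared groups, and leaving out each library. Promoter sequences and names came from RefSeq on GRCh38.p14 and untranslated regions from GENCODE v29, while the table was made on hg19, so no position was carried between them.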

Additional observations from a re-analysis of the deposited data

Results flagged for a closer look

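In 5 members the difference from DMSO was called in opposite directions at 2 of the times, and the difference between those times was itself called by limma. The share of all tested genes that meet this rule was not computed, so the count is a description. DUSP2 was higher at 1 and 3 h and lower at 6 and 24 h. Its level changed by -1.07 (adjusted p = 7.34e-10) and -1.53 (1.82e-11) at 6 and 24 h against 1 h, and by -0.80 (3.57e-08) and -1.27 (7.03e-11) at 6 and 24 h against 3 h.

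DUSP4 differed by -1.55 (4.64e-10) at 3 h and by -0.59 (5.15e-06) at 6 h against 1 h, where its rise over DMSO depended on single libraries. DUSP8 differed from 1 h by -1.23 (1.77e-09) after 3 h, -1.11 (1.95e-09) after 6 h and -0.96 (9.69e-09) after 24 h, and its levels of 1.06 to 4.10 TPM are the lowest among these 5 genes.

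DUSP5 was higher at 24 h than at 1 h by 0.69 (2.72e-08), than at 3 h by 2.54 (7.68e-14) and than at 6 h by 0.41 (6.02e-06). Its rise over DMSO at 24 h turned to -0.045 with median-ratio scaling, so the opposite directions rest on the scaling there. DUSP16 was higher at 24 h than at 3 h by 1.26 (1.57e-10) and than at 6 h by 0.54 (2.02e-06). Spike-in scaling ended calls against DMSO of DUSP2 at 1, 3 and 6 h and of DUSP4 at 1 and 6 h. It also ended those of DUSP5 at 1, 6 and 24 h and of DUSP8 and DUSP16 at 6 and 24 h. The steps of DUSP2 from 3 to 6 h and of DUSP5 and DUSP16 from 6 to 24 h lost their calls too.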

How the results depend on the processing

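Over 36 differences of members from DMSO, the alternatives other than leaving out a library gave the same direction and call 295 times, lost a call 18 times, gained 2 and turned 1 round. The one that turned was DUSP5 at 24 h (-0.045 with median-ratio scaling), where DUSP4 (-0.22) and DUSP7 (-0.37) gained a call. Spike-in scaling ended the calls at 1 h of DUSP2 (0.48), DUSP4 (0.19), DUSP5 (-0.59), DUSP7 (0.23) and DUSP10 (0.51), at 3 h of DUSP2 (0.050) and DUSP7 (0.33), at 6 h of DUSP2 (-0.35), DUSP4 (-0.17), DUSP5 (-0.067), DUSP8 (-0.36) and DUSP16 (-0.048), and at 24 h of DUSP5 (0.14), DUSP8 (-0.33) and DUSP16 (0.30). With no filter, DUSP4 (0.25) and DUSP7 (0.29) lost their 1 h calls, as did DUSP4 (0.25) with only the compared groups. Of 36 differences between times, these alternatives lost 13 calls, gained 3 and turned 1 round (DUSP7 at 6 h against 3 h, 0.042 with spike-in scaling), and leaving out a library lost 14 and gained 2. A filter of 5 TPM left no value for DUSP8 and DUSP10.

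Genes called higher and lower at 1 h numbered 1802 and 908 as deposited, 350 and 122 with spike-in scaling, 1859 and 1791 with median-ratio scaling and 1187 and 536 with only the compared groups. At 3 h, 2991 and 3836 became 412 and 2526 with spike-in scaling, and 3494 and 3527 with spike-ins out of the total. At 6 h, 5327 and 2945 became 4117 and 992 with spike-in scaling and 3923 and 4503 with median-ratio scaling. At 24 h, 6738 and 1826 became 2441 and 659, and 4452 and 3597, under the same scalings. Leaving out a library moved the 1 h counts to between 1042 and 2898 higher and between 531 and 1044 lower. The extremes of the higher count came without DMSO replicate 2 (1042) and DMSO replicate 3 (2898), and it was 1176 without 1 h replicate 2. The lower count was 531 without DMSO replicate 1 and 560 without 1 h replicate 3. DUSP4 at 1 h ranged from 0.16 to 0.31, DUSP7 from 0.20 to 0.36 at 1 h, 0.10 to 0.26 at 6 h and -0.26 to -0.10 at 24 h, and DUSP5 at 24 h from 0.099 to 0.20. DUSP7 gained a call at 6 h without 3 h replicate 2 or DMSO replicate 3, and at 24 h without 3 h replicate 2 or DMSO replicate 2. The cause of these changes was not tested.

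With a replicate block, 1982 and 944 genes were called higher and lower at 1 h, 3035 and 3915 at 3 h, 5388 and 2996 at 6 h and 6786 and 1850 at 24 h, and no member gained or lost a call against DMSO. Deviations of same-numbered libraries correlated at -0.16 to 0.43 (median 0.0055, 30 pairs) and were over 0.1 in 7 pairs. In no contrast with DMSO other than that of 6 h were all 3 pairs over 0.1. Of 32 list counts, alternatives other than leaving out a library moved 42 values by over 1.5 times and left 246 within that range, and leaving out a library moved 34, most of them at 1 h. Of 86 list results with the smallest adjusted p, median-ratio scaling ended 3 calls and spike-in scaling 27, turning PPP2CA at 3 h from higher to -0.032. Low levels such as those of DUSP8 may rest on few reads, which TPM values do not show.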
